A study of Homo sapiens with 20 samples.

Results

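The EGFR family in T47D breast cancer cells was followed through 10 genes taken by symbol: the receptor genes EGFR, ERBB2, ERBB3 and ERBB4, and the ligand genes TGFA, HBEGF, BTC, AREG, EREG and NRG1. Each symbol matched 1 Ensembl gene of the 57820 genes counted. T47D is an established luminal breast cancer line that carries oestrogen and progesterone receptors. Cells had received an siRNA against BRG1 (the product of SMARCA4 and the motor of the SWI/SNF chromatin remodeller), against CBX3 (heterochromatin protein HP1 gamma) or against FOXA1 (a pioneer transcription factor), or a control siRNA. Each of these 4 siRNAs was sampled at 6 h and at 0 h of R5020, a synthetic progestin, with 2 libraries in each of the 8 groups. Untransfected T47D cells gave 1 RNA library at 6 h and 1 at 0 h, and BRG1 binding was recorded as 1 peak list at 30 min and 1 at 0 min. Per the labels, all groups were kept in charcoal-stripped serum and then overnight without serum, and the hormone dose was 10 nM; the first si-CBX3 0 h library carries no protocol. The labels do not say whether replicates were separate cultures, so each p-value reflects the spread among the deposited libraries and no more. Every sample is of this 1 cell line.

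EGFR, ERBB2, ERBB3 and ERBB4 are receptor tyrosine kinases that signal as pairs. TGFA, AREG, HBEGF, BTC and EREG are made as membrane-bound precursors that proteases release and that bind EGFR, with HBEGF, BTC and EREG also binding ERBB4; NRG1 binds ERBB3 and ERBB4. ERBB2 has no known ligand and ERBB3 has a weak kinase but carries docking sites for PI3K. In luminal breast cells progestins are known to change the amounts of these receptors and ligands.

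Libraries held 50017255 to 74374857 counted fragments. Each siRNA lowered its target: SMARCA4 lay at 2.26 to 5.90 CPM (counts scaled to library size with TMM factors) in the si-BRG1 libraries and at 61.7 to 187 CPM in all others, CBX3 at 3.07 to 6.80 CPM in the si-CBX3 libraries and at 242 to 381 CPM elsewhere, and FOXA1 at 44.4 to 62.8 CPM in the si-FOXA1 libraries and at 158 to 505 CPM elsewhere. The file headers record 1 counting thread for si-CBX3 and si-FOXA1 and 8 threads for si-BRG1 and si-control. The labels do not say whether these sets also differed in experiment or sequencing run. SMARCA4 differed along the same line at 0 h, at 175 to 187 CPM in si-CBX3 and si-FOXA1 and at 65.7 to 76.6 CPM in si-control. All 9 luminal markers were present in every library (KRT19 2480 to 4240 CPM, KRT8 1350 to 4700 CPM). The leukocyte genes PTPRC, CD3E and CD68 stayed at or below 0.0448 CPM, and the endothelial genes CDH5, VWF and KDR at or below 0.715 CPM. Basal markers moved with FOXA1 knockdown: 5 of 7 were higher in si-FOXA1 than in si-control at 0 h and 7 of 7 at 6 h (TRIM29 2.79, SE 0.09, at 0 h on the log2 scale), where 40% and 40.1% of all tested genes were called higher. In the same comparisons 2 luminal markers were higher and 5 lower of 9 at 0 h, and 4 were higher and 3 lower at 6 h. The 3 tested mesenchymal markers of 6 were lower at both times. Of all tested genes, 33.5% were called lower at 0 h and 34.5% at 6 h. The luminal counts at 6 h thus lie near the shares of all genes. The summed level of the 7 basal markers was 386.7 to 399.9 CPM at 6 h and 383.3 to 384.1 CPM at 0 h in si-FOXA1. In si-control this basal sum was 96.6 to 99.7 CPM at 6 h and 91.2 to 100.6 CPM at 0 h. The si-CBX3 libraries were counted with 1 thread, like those of si-FOXA1. Their basal sum was 138.0 to 139.8 CPM at 6 h and 150.9 to 152.2 CPM at 0 h. The si-BRG1 sums lay between those of si-CBX3 and si-control at both times. At 0 h, 3 of the 7 markers were called higher and 1 lower in si-CBX3 than in si-control. At 6 h, 2 were higher and 0 lower. Against si-CBX3 at 0 h, 7 of 7 were called higher in si-FOXA1. The basal markers KRT14, KRT17, KRT5 and TP63 were at or below 0.499, 0.321, 1.71 and 6.51 CPM in all libraries. The basal sum thus came mostly from CDH3 (54.0 to 234 CPM), ITGA6 (24.3 to 179 CPM) and TRIM29 (6.29 to 64.0 CPM). The part of this basal shift in the si-FOXA1 and si-CBX3 results was not tested. In such bulk libraries a change in the number of cells of a type and a change in RNA per cell cannot be told apart.

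BRG1 occupied the 5′ ends of 4 of the 10 genes at 30 min of hormone. Peaks overlapped the 5′ ends of EGFR, ERBB3, ERBB4 and TGFA, while 10.3% of the 18806 genes tested for expression had a peak within 5 kb of theirs. In the 0 min list, ERBB3 alone did, at a background of 1.89%. The lists held 6180 peaks at 30 min and 2288 peaks at 0 min, each from 1 library, so a peak missing from the shorter list may lie below its threshold, and no test is possible. Peak scores are the authors' own.

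In hg19, the EGFR peak at 30 min spanned chr7:55086147-55087751 with a score of 74.75, and a second one of score 58.68 lay inside the gene with its centre 8.31 kb from the 5′ end. At TGFA the peak spanned chr2:70779989-70781476 with a score of 56.55 and its centre 0.593 kb inside the gene. The ERBB4 peak, chr2:213403121-213404008, scored 82.85 and was centred on the 5′ end. ERBB4 held a further 30 min peak of score 191.23 far inside the gene, 1140 kb from its 5′ end, above the list's median score of 69.72. At ERBB3 the peak was in both lists, with a score of 85.54 at 30 min (chr12:56472107-56475458) and 79.42 at 0 min (chr12:56472247-56475114). The other 6 genes had no peak within 5 kb in either list. HBEGF had its nearest peak 113 kb away at 30 min and 52.4 kb away at 0 min, and ERBB2 had its nearest at 433 kb and 120 kb.

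**Figure D1:**
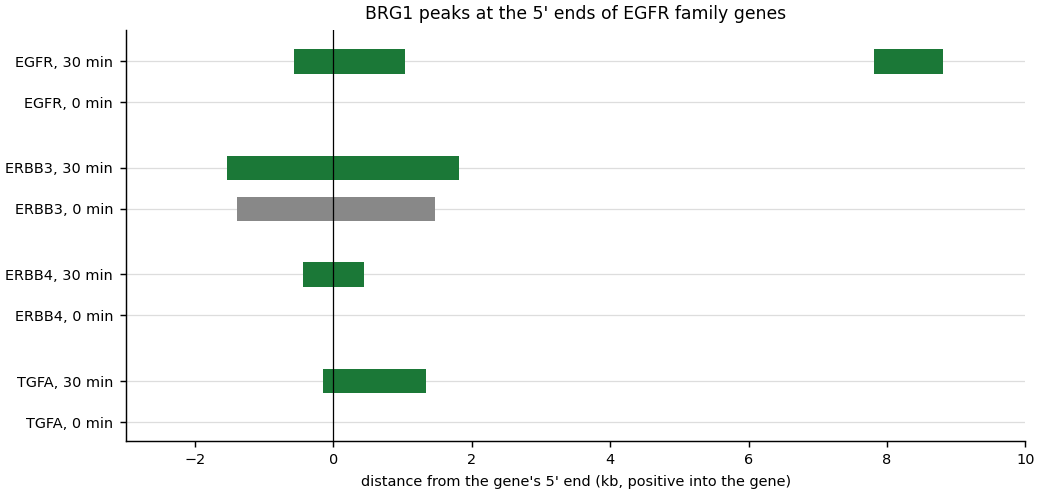
Extent of BRG1 ChIP peaks (bars; 30 min green, 0 min grey) around the 5′ ends of the 4 family genes that had one, with distance from the annotated 5′ end in kb on the x axis, positive into the gene. ERBB3 has a peak in both lists, and EGFR, ERBB4 and TGFA have one at 30 min only. The ERBB4 peak 1140 kb inside the gene is beyond the axis.

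Promoter sequence was read for the 3 genes with a peak in the 30 min list only and for BTC, whose response to FOXA1 knockdown is described further on. RefSeq's table for GRCh38.p14 held 8 of the 10 genes (not ERBB3 or NRG1). The 250 bases before the most upstream RefSeq start are given 5′ to 3′ on the gene's strand. They lie at chr7:55018767-55019016 (plus strand, EGFR), chr2:70553827-70554076 (minus, TGFA), chr2:212538803-212539052 (minus, ERBB4) and chr4:74794524-74794773 (minus, BTC), in a build other than that of the peaks, and the builds were not aligned to each other. Capitals mark matches, on either strand, to 4 motifs: GGGCGG (GC box), TGTTCT (half-site of progesterone and glucocorticoid receptors), TGTTTAC (forkhead core, the kind of element FOXA1 binds) and TGANTCA (AP-1).
EGFR: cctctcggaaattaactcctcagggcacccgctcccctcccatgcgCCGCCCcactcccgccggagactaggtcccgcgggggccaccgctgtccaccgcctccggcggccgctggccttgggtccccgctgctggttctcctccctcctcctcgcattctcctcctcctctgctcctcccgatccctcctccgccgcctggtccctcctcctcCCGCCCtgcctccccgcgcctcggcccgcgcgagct
TGFA: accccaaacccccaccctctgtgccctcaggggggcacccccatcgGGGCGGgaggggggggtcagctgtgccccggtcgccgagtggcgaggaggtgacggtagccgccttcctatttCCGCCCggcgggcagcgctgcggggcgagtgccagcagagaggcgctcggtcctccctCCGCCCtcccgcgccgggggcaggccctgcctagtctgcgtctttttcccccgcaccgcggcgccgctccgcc
ERBB4: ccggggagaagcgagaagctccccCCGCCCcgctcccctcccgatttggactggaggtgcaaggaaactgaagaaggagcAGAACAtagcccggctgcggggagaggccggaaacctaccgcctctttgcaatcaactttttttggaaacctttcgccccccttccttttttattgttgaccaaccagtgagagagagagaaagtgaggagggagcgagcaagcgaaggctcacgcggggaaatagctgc
BTC: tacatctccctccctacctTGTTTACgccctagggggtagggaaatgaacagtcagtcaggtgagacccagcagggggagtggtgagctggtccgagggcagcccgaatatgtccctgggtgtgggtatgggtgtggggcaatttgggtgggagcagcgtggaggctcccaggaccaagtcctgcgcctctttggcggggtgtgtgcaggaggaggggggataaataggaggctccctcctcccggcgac

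These EGFR and TGFA windows held 2 and 3 GC boxes. The table has a second, more downstream start for each: the window before that of TGFA held 1 receptor half-site at -46, and the window before that of EGFR held 2 AP-1 motifs and no half-site. ERBB4 held 1 GC box and 1 receptor half-site, written here as its reverse complement and starting at -170 from the start. BTC held 1 forkhead core, starting at -231, and no forkhead core was in the windows of the other 7 genes, each of which was also called in si-FOXA1 against si-control at 6 h. No marked motif overlapped another. Among 35116 RefSeq promoters of the same length, 42.6% held a GC box, 12.4% the half-site, 2.98% the forkhead core and 6.57% the AP-1 motif. These letters describe the windows and say nothing of binding.

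R5020 moved the family in opposite directions, with EGFR and TGFA up and the other receptors down. In si-control cells 5 of 9 tested members passed the test, 2 higher and 3 lower, where 37.6% of all tested genes did (19.5% higher, 18.1% lower). A call here means an adjusted p below 0.05 in edgeR's quasi-likelihood test over all 18806 tested genes. NRG1 was too low to test, with 0 to 5 counts in every library. The median log2 change of the 9 members was 0.21, beside -0.02 over all tested genes.

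EGFR (ENSG00000146648, chr7:55086714-55324313, plus strand) had 109.6 and 127 CPM at 6 h, against 27.8 and 27.3 CPM at 0 h, in si-BRG1 cells. In si-CBX3 cells it had 71.8 and 73.5 CPM at 6 h and 18.1 and 16.2 CPM at 0 h. In si-FOXA1 cells the values were 163 and 168 CPM at 6 h and 68.9 and 67.2 CPM at 0 h. With control siRNA EGFR had 122.5 and 109 CPM at 6 h, against 24.4 and 22.1 CPM at 0 h. All 6 h libraries thus lay above all 0 h libraries of any siRNA, and within 0 h the order from high to low was si-FOXA1, si-BRG1, si-control, si-CBX3. EGFR rose 4.98-fold in si-control (log2 2.31, SE 0.09, adjusted p = 2.17e-12), 4.29-fold in si-BRG1, 4.24-fold in si-CBX3 and 2.43-fold in si-FOXA1. The smaller fold in si-FOXA1 came with the highest 6 h level and the highest 0 h level.

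TGFA (ENSG00000163235, chr2:70674412-70781325, minus strand), the precursor of transforming growth factor alpha, was the most abundant of the 6 member ligands per exon length in every library. It had 108 and 96.7 CPM at 6 h against 22.5 and 23.0 CPM at 0 h in si-BRG1, and 126 and 128 CPM at 6 h against 27.7 and 28.3 CPM at 0 h in si-CBX3. In si-FOXA1 its levels were 48.6 and 44.8 CPM at 6 h and 26.1 and 24.1 CPM at 0 h. In si-control they were 55.7 and 58.5 CPM at 6 h and 18.2 and 18.5 CPM at 0 h. The 6 h and 0 h libraries did not overlap under any siRNA, and the si-BRG1 and si-CBX3 libraries at 6 h lay above those of si-FOXA1 and si-control. TGFA rose 3.11-fold in si-control (log2 1.64, SE 0.08, adjusted p = 2.96e-11), 4.50-fold in si-BRG1, 4.52-fold in si-CBX3 and 1.86-fold in si-FOXA1.

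ERBB2 (ENSG00000141736, chr17:37844167-37886679, plus strand), the receptor amplified in HER2-positive tumours, fell under all 4 siRNAs. Its 6 h libraries held 173 and 161 CPM in si-BRG1, 381 and 372 CPM in si-CBX3, 379 and 421 CPM in si-FOXA1 and 193 and 177.5 CPM in si-control. Its 0 h libraries held 320.3 and 322 CPM in si-BRG1, 654 and 646 CPM in si-CBX3, 754.5 and 808 CPM in si-FOXA1 and 320.1 and 295 CPM in si-control. Within each siRNA the 6 h libraries lay below the 0 h libraries, and the fall was 1.66-fold in si-control (log2 -0.73, SE 0.07, adjusted p = 4.67e-07) and between 1.73-fold and 1.95-fold in the knockdowns.

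ERBB3 (ENSG00000065361, chr12:56473641-56497289, plus strand) had the largest CPM of the family except in the si-FOXA1 0 h libraries and 1 si-FOXA1 6 h library, where ERBB2 was above it, and fell 1.38-fold in si-control (log2 -0.46, SE 0.07, adjusted p = 2.85e-05). Its 6 h libraries held 518 and 533 CPM in si-BRG1, 582 and 599.5 CPM in si-CBX3, 389.7 and 384 CPM in si-FOXA1 and 517 and 492 CPM in si-control. The 0 h libraries held 823 and 808 CPM in si-BRG1, 1032 and 1067 CPM in si-CBX3, 622 and 628 CPM in si-FOXA1 and 739.9 and 653 CPM in si-control. Its log2 change was -0.63 in si-BRG1, -0.83 in si-CBX3 and -0.69 in si-FOXA1, all called.

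ERBB4 (ENSG00000178568, chr2:212240446-213403565, minus strand), a receptor tied to differentiation of breast epithelium, had 16.8 and 19.3 CPM at 6 h against 24.5 and 27.4 CPM at 0 h in si-BRG1. It had 34.4 and 36.6 CPM at 6 h against 52.4 and 46.3 CPM at 0 h in si-CBX3. In si-control it fell to 9.65 and 8.80 CPM at 6 h, against 15.7 and 16.4 CPM at 0 h (log2 -0.80, SE 0.10, adjusted p = 6.15e-06). In si-FOXA1 the levels were 46.4 and 43.4 CPM at 6 h and 48.3 and 46.9 CPM at 0 h, a log2 difference of -0.08 (95% interval -0.27 to 0.11) that was not called. The fall was called in si-BRG1 (-0.52) and si-CBX3 (-0.48).

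**Figure D2:**
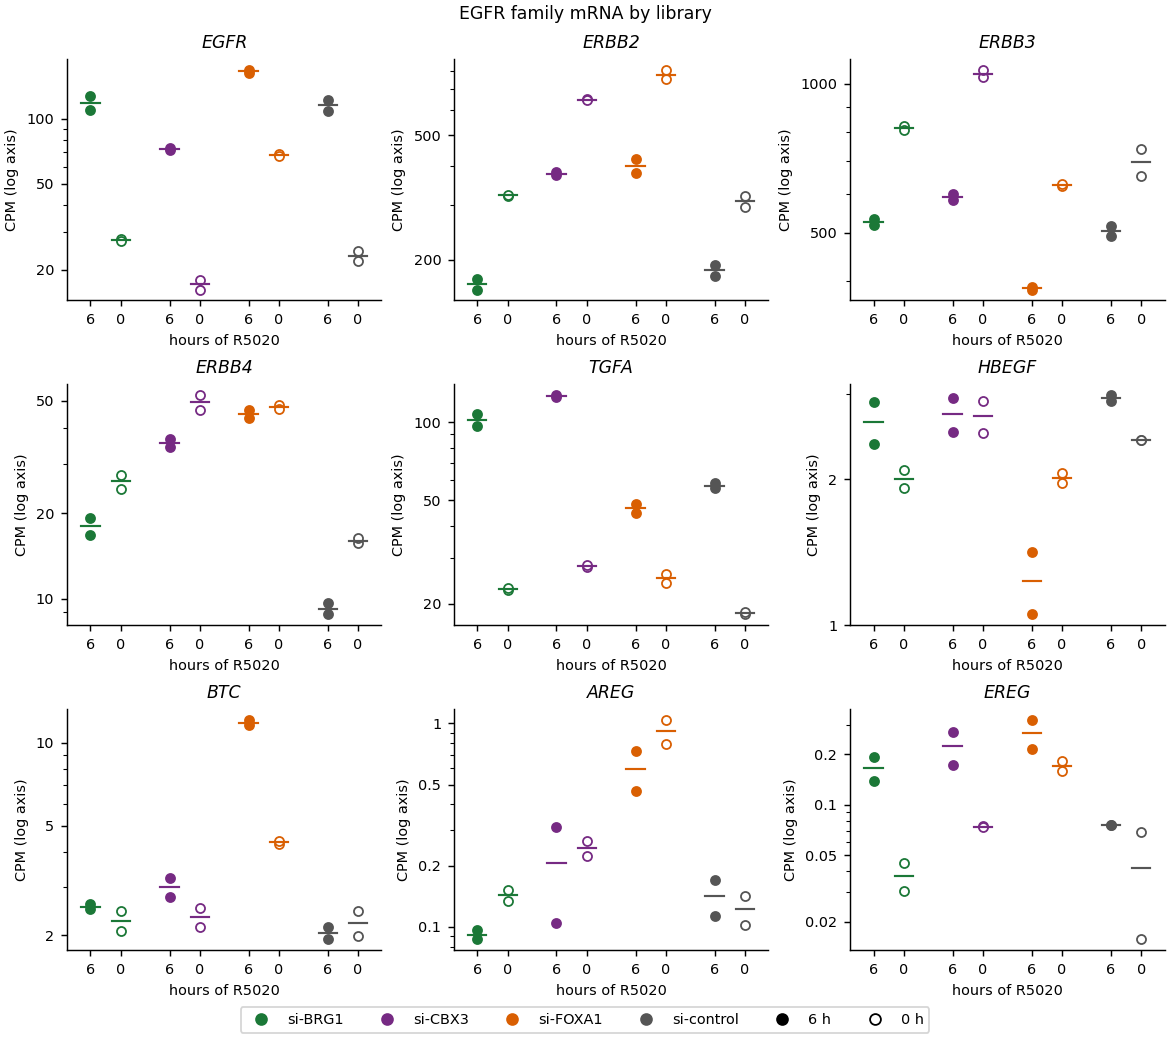
CPM on a log axis (y) for the 9 tested family members in each library, by siRNA and hours of R5020 (x; 6 h filled, 0 h open); points are libraries and short lines the mean of 2. EGFR and TGFA are higher and ERBB2 and ERBB3 lower at 6 h than at 0 h under every siRNA, and BTC stands highest in si-FOXA1 at 6 h.

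The remaining member ligands were scarce. HBEGF, the heparin-binding ligand, lay at 1.05 to 2.98 CPM and BTC (betacellulin) at 1.93 to 12.1 CPM over the 16 libraries, and neither was called in si-control. HBEGF had 1.05 and 1.41 CPM at 6 h against 1.96 and 2.06 CPM at 0 h in si-FOXA1, a fall of 1.62-fold (log2 -0.70, SE 0.18, adjusted p = 0.00446). Its adjusted p was 0.070 without si-FOXA1 6 h replicate 1. BTC had 11.5 and 12.1 CPM at 6 h against 4.29 and 4.41 CPM at 0 h in si-FOXA1, a rise of 2.71-fold (log2 1.44, SE 0.12, adjusted p = 7.97e-08). Under the other siRNAs the BTC changes lay between -0.12 and 0.35 on the log2 scale and were not called.

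EREG (epiregulin) had 1 to 18 counts per library. It was called higher at 6 h in si-BRG1, with 8 and 14 counts at 6 h and 3 and 2 counts at 0 h (log2 2.10, SE 0.61, adjusted p = 0.0123), and in si-CBX3, with 13 and 9 counts at 6 h and 5 and 5 counts at 0 h (log2 1.56, SE 0.53, adjusted p = 0.0257). In si-control it had 4 and 4 counts at 6 h and 1 and 4 at 0 h, which was not called. DESeq2 called neither rise (adjusted p = 0.0723 in si-BRG1 and 0.126 in si-CBX3), and the si-CBX3 rise was also lost with no filter on low counts (0.056). Leaving out si-BRG1 0 h replicate 1, si-BRG1 0 h replicate 2 or si-BRG1 6 h replicate 2 also ended the si-BRG1 call (adjusted p = 0.051, 0.10 and 0.0879). The si-CBX3 call was lost without si-CBX3 0 h replicate 1, si-CBX3 0 h replicate 2 or si-CBX3 6 h replicate 1 (0.101, 0.11 and 0.203).

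AREG (amphiregulin) had 5 to 72 counts per library, and its values are uncertain. A second hg19 gene model, ENSG00000205595, is a near-identical copy of it and was at 0 in all 16 count tables. In the untransfected libraries, quantified per transcript by another method, AREG had 935 and the second model 498.5 estimated reads at 6 h, and 1017 and 669 at 0 h. Reads shared by near-identical genes can be dropped by one method and divided by another; their part in the AREG values was not tested. AREG was not called for hormone under any siRNA.

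Over the 4 hormone responses the members called were 6 of 9 in si-BRG1 (3 higher, 3 lower), 6 of 9 in si-CBX3 (3 and 3) and 6 of 9 in si-FOXA1 (3 and 3). Of all tested genes, 35.7% were called in si-BRG1 (18.6% higher, 17.1% lower), 41% in si-CBX3 (20.4% higher, 20.5% lower) and 38.8% in si-FOXA1 (19.1% higher, 19.6% lower). EGFR and TGFA were higher and ERBB2 and ERBB3 lower in each of them and in si-control.

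**Figure D3:**
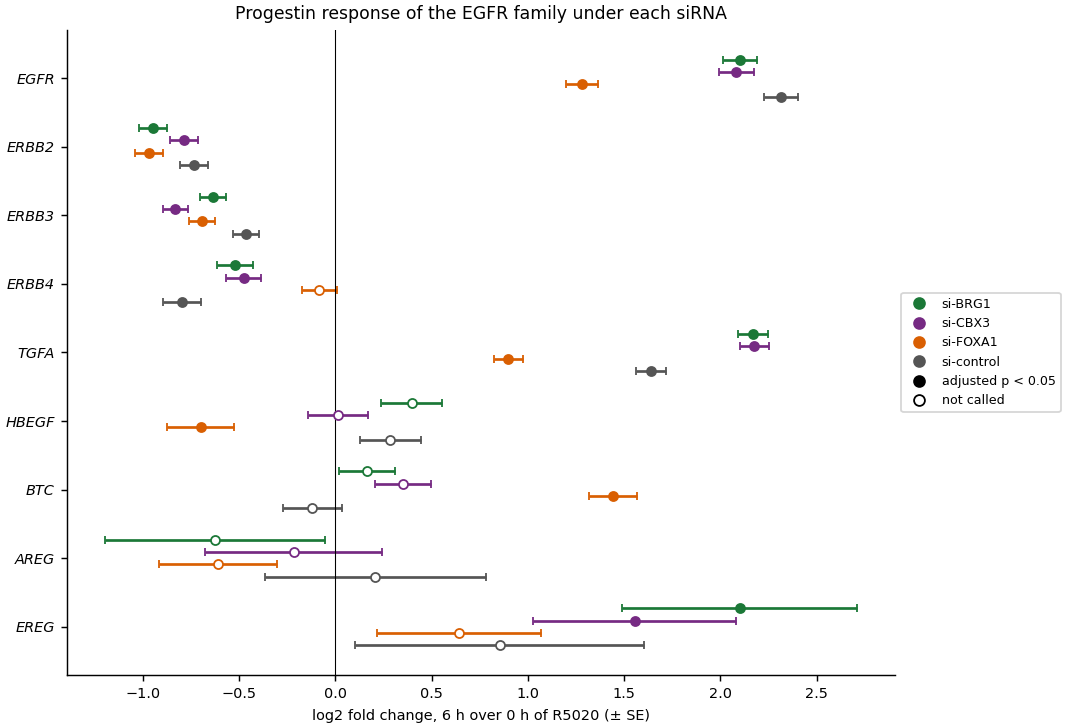
Log2 fold change of 6 h over 0 h of R5020 (x, with SE) for the 9 tested members (y) under each siRNA; filled points are called at an adjusted p below 0.05. EGFR and TGFA lie right of 0 and ERBB2 and ERBB3 left of it under all 4 siRNAs, while HBEGF and BTC move in si-FOXA1 alone among called changes.

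The hormone response itself differed between siRNAs for TGFA, EGFR and several others, by the interaction test of a knockdown's response minus that of si-control. FOXA1 knockdown had the most such members, 5 of 9 (2 higher, 3 lower) at a background of 28.7% (13% higher, 15.7% lower). The response was lower in si-FOXA1 for EGFR (log2 difference -1.03, SE 0.12, adjusted p = 8.06e-06), HBEGF (-0.99, SE 0.24) and TGFA (-0.74, SE 0.11). It was higher in si-FOXA1 for BTC (1.56, SE 0.20) and ERBB4 (0.71, SE 0.13), which fell in si-control and was not called for hormone in si-FOXA1.

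TGFA responded more to hormone in the other 2 knockdowns than in si-control. Its response was larger than in si-control by 0.53 (SE 0.11, adjusted p = 0.0108) in si-BRG1, the 1 member called of 9 beside 5.22% of all genes (1.49% higher, 3.72% lower), and by 0.54 (SE 0.11, adjusted p = 0.00375) in si-CBX3. The si-BRG1 difference was not called without si-BRG1 0 h replicate 1 (0.51, adjusted p = 0.0732) or when only these 4 groups were fitted (0.54, adjusted p = 0.0753). In si-CBX3, 2 of 9 members were called beside 8.99% of all genes (4.63% higher, 4.36% lower); the other was ERBB3, whose fall was larger by 0.37 (-0.37, SE 0.09, adjusted p = 0.0216). The ERBB3 call held in 1 of 8 fits that left out a library, being lost without any si-CBX3 library (adjusted p = 0.0516 to 0.135), without either si-control 6 h library (0.122 and 0.0605) and without si-control 0 h replicate 2 (0.145). These interactions share the si-control libraries.

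Before hormone, EGFR, ERBB2, ERBB4 and 4 of 5 tested ligands were higher in si-FOXA1 than in si-control. At 0 h, 8 of 9 members were called in si-FOXA1 against si-control, 7 higher and 1 lower. Of all tested genes 73.5% were called (40% higher, 33.5% lower). The count in either direction lies nearer its share of all genes than the count called higher does. The median log2 change of the 9 members was 1.34, beside 0.111 over all tested genes. EGFR was 2.93-fold higher (log2 1.55, SE 0.09, adjusted p = 9.82e-11), ERBB4 2.97-fold, ERBB2 2.54-fold, BTC 1.96-fold and TGFA 1.37-fold. AREG (7.37-fold, 72 and 52 counts against 9 and 6) and EREG (4.01-fold, 11 and 12 counts against 1 and 4) were also higher, on few counts. EREG moved to a log2 change of 1.23 without si-control 0 h replicate 1 and was then not called (adjusted p = 0.122), nor was it in DESeq2 (0.0573). ERBB3 was 1.11-fold lower (log2 -0.16, SE 0.07, adjusted p = 0.0424), a call lost without si-FOXA1 0 h replicate 1, si-FOXA1 0 h replicate 2 or si-control 0 h replicate 1 (adjusted p from 0.117 to 0.143) and with replicate number as a block (0.0501).

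CBX3 knockdown at 0 h gave 4 higher and 1 lower of 9, beside 54.1% of all genes (28.1% higher, 26% lower). ERBB4 was 3.08-fold higher (log2 1.62, SE 0.09), ERBB2 2.11-fold, TGFA 1.53-fold and ERBB3 1.51-fold, and EGFR was 1.35-fold lower (log2 -0.44, SE 0.09, adjusted p = 0.000487). BRG1 knockdown at 0 h gave 4 higher and none lower, beside 28.5% of all genes (15.1% higher, 13.4% lower). ERBB4 was 1.62-fold higher (log2 0.70, SE 0.09, adjusted p = 4.27e-05), TGFA 1.24-fold, EGFR 1.19-fold and ERBB3 1.17-fold.

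ERBB4 was the 1 of these 4 calls in si-BRG1 that passed in every alternative run. The EGFR difference (0.25, adjusted p = 0.0434) passed in none of the 9 alternatives (adjusted p = 0.0525 to 0.302), among them leaving out any one si-BRG1 0 h or si-control 0 h library. ERBB3 was lost without si-BRG1 0 h replicate 1 (0.101), si-BRG1 0 h replicate 2 (0.067) or si-control 0 h replicate 2 (0.223). TGFA was lost without si-BRG1 0 h replicate 2 (0.0505).

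At 6 h ERBB4 was higher in each knockdown. In si-FOXA1 it was 4.87-fold above si-control (log2 2.28, SE 0.10), in si-CBX3 3.85-fold (1.94, SE 0.10) and in si-BRG1 1.96-fold (0.97, SE 0.10). TGFA was 2.22-fold higher in si-CBX3 and 1.79-fold higher in si-BRG1, but 1.22-fold lower in si-FOXA1 (log2 -0.29, SE 0.07, adjusted p = 0.00195). BTC was 5.77-fold higher in si-FOXA1 (log2 2.53, SE 0.14, adjusted p = 6.98e-11) and 1.46-fold higher in si-CBX3, a call lost without si-CBX3 6 h replicate 1 (adjusted p = 0.073) or si-control 6 h replicate 2 (0.0578). HBEGF was 2.38-fold lower in si-FOXA1 (-1.25, SE 0.17).

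EGFR at 6 h was 1.43-fold higher in si-FOXA1 (0.52, SE 0.08) and 1.59-fold lower in si-CBX3 (-0.67, SE 0.08), and in si-BRG1 it differed by 0.03 (95% interval -0.14 to 0.21) and was not called. ERBB2 was 2.16-fold higher in si-FOXA1 and 2.03-fold higher in si-CBX3, and its log2 difference in si-BRG1 was -0.15 (95% interval -0.30 to 0.01), not called in edgeR; DESeq2 called it lower (-0.19, adjusted p = 0.0435), as did edgeR without si-BRG1 6 h replicate 1 (-0.21, adjusted p = 0.0463). In all, 9 of 9 members were called in si-FOXA1 (6 higher, 3 lower), 7 of 9 in si-CBX3 (6 higher, 1 lower) and 2 of 9 in si-BRG1 (both higher). Of all tested genes, 74.6% were called in si-FOXA1 (40.1% higher, 34.5% lower), 49.2% in si-CBX3 (24.7% higher, 24.4% lower) and 37.3% in si-BRG1 (19.6% higher, 17.8% lower). ERBB3 was among the calls in si-CBX3 (0.23) and in si-FOXA1 (-0.38). The ERBB3 call in si-CBX3 was lost without si-CBX3 6 h replicate 2 (adjusted p = 0.0752) or si-control 6 h replicate 2 (0.0791), and 4 members were called without the si-control library. AREG was higher in si-FOXA1 (2.06, SE 0.43). EREG was higher in si-FOXA1 (1.79, SE 0.52; not called in DESeq2, 0.0546, or without si-FOXA1 6 h replicate 1, 0.0522) and in si-CBX3 (1.52, SE 0.56). The EREG call in si-CBX3 was lost in DESeq2 (0.14), with no filter on low counts (0.0838) and without si-CBX3 6 h replicate 1 (0.21), si-control 6 h replicate 1 (0.11) or si-control 6 h replicate 2 (0.114). All knockdown comparisons share the si-control libraries.

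**Figure D4:**
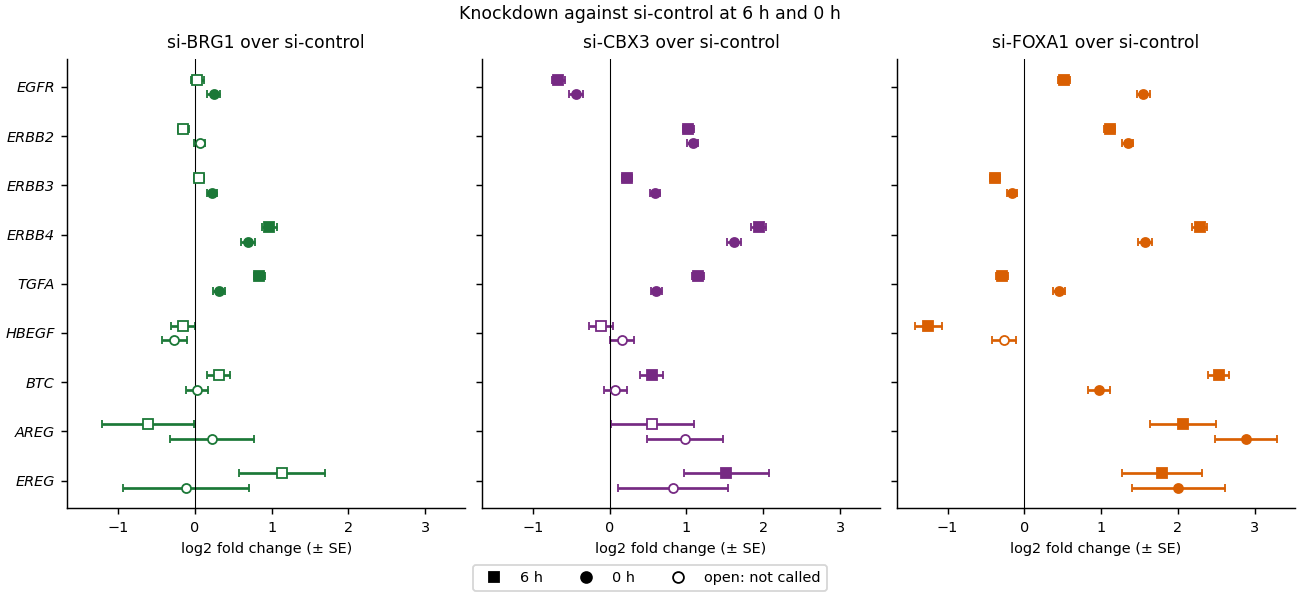
Log2 fold change against si-control (x, with SE) for the 9 tested members (y) in each of the knockdowns, at 6 h (squares) and 0 h (circles); open symbols are not called. ERBB4 is higher in every panel at both times, and EGFR is higher in si-FOXA1 and lower in si-CBX3.

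The siRNA and the counting command cannot be told apart in si-CBX3 and si-FOXA1 against si-control. The knockdowns counted by the same command, si-FOXA1 and si-CBX3, were therefore set against each other at 0 h. Here 6 of 9 members were called, 4 higher and 2 lower in si-FOXA1, beside 64.8% of all genes (34.2% higher, 30.6% lower). EGFR was 3.97-fold higher in si-FOXA1 (log2 1.99, SE 0.09, adjusted p = 8.05e-12), with 68.9 and 67.2 CPM in si-FOXA1 and 18.1 and 16.2 CPM in si-CBX3. AREG was 3.74-fold higher and BTC 1.86-fold higher. ERBB3 was 1.68-fold lower.

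ERBB2 differed by 0.27 (SE 0.07, adjusted p = 0.00422; 0.0566 without si-FOXA1 0 h replicate 2) between these knockdowns, less than its gap to si-control of 1.34 in si-FOXA1 and 1.08 in si-CBX3. ERBB4 differed by -0.05 (95% interval -0.24 to 0.14), beside gaps to si-control of 1.57 in si-FOXA1 and 1.62 in si-CBX3. HBEGF was 1.34-fold lower in si-FOXA1 (adjusted p = 0.0258), a call lost in DESeq2 (0.076) and without si-CBX3 0 h replicate 2 (0.186), si-FOXA1 0 h replicate 1 (0.118) or si-FOXA1 0 h replicate 2 (0.0715). Within the 8-thread set, si-BRG1 against si-control, ERBB2 differed by 0.06 at 0 h (95% interval -0.09 to 0.22) and ERBB4 by 0.70.

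Receptor mRNA was mostly ERBB3 and ERBB2 in each library, and the share of EGFR grew with hormone. Shares were taken of the summed CPM per kb of exon over the 4 receptors. EGFR made up 10.4% ± 0.90 (SD, n = 2 here and below) at 6 h and 1.64% ± 0.0089 at 0 h in si-BRG1, and 4.96% ± 0.037 at 6 h and 0.699% ± 0.060 at 0 h in si-CBX3. In si-FOXA1 it made up 12.8% ± 0.048 at 6 h and 3.35% ± 0.15 at 0 h, and in si-control 10.4% ± 0.41 at 6 h and 1.58% ± 0.013 at 0 h. ERBB3 held the largest share in si-BRG1, si-CBX3 and si-control at both times, from 60.4% to 72.8%. In si-FOXA1 cells ERBB2 and ERBB3 were close, with ERBB2 at 38.8% ± 1.9 at 6 h and 48.2% ± 1.1 at 0 h and ERBB3 at 44.9% ± 1.6 at 6 h and 46.1% ± 0.84 at 0 h. Among the 6 member ligands TGFA made up 65.2% in si-FOXA1 and 86.4% to 92.3% under the other siRNAs at 6 h, and 64.3% to 75.0% at 0 h. BTC made up 29.1% ± 1.4 in si-FOXA1 at 6 h, beside 5.46% ± 0.53 in si-control. AREG enters these ligand shares with its uncertain counts. EGF is outside the 6 member ligands. Per kb of exon it lay above TGFA in si-FOXA1 at 6 h (13.8 and 13.5 CPM against 9.79 and 9.03). It also lay above TGFA in si-control 0 h replicate 1 (4.33 against 3.66) and below TGFA in all other libraries.

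**Figure D5:**
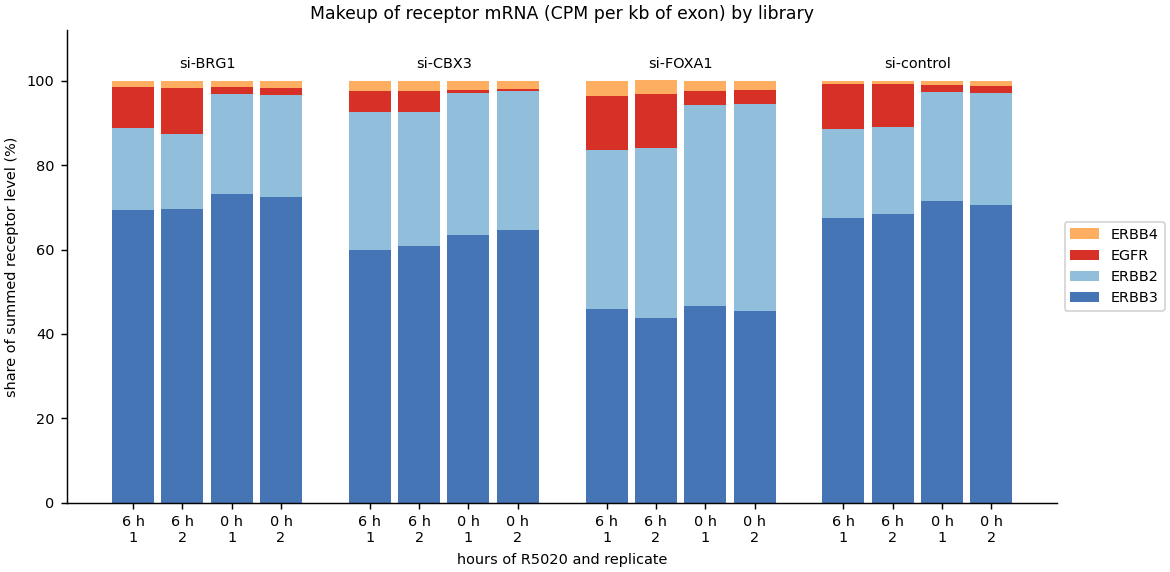
Share of each receptor (stacked bars, % of the summed CPM per kb of exon of the 4 receptors) in each library, grouped by siRNA, hours of R5020 and replicate. The EGFR band is wider at 6 h than at 0 h under every siRNA, and the ERBB2 band is widest in si-FOXA1.

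Untransfected cells gave 1 library per time, without a test. EGFR was at 8.65 RPKM at 6 h and 3.32 RPKM at 0 h, and TGFA at 6.39 RPKM at 6 h and 1.95 RPKM at 0 h. These 2 of 10 members passed a 2-fold difference on the log2(RPKM + 1) scale (1.16 and 1.32), both higher, where 7.89% of 18455 genes did (5.94% higher, 1.95% lower). With a pseudocount of 0.1 in place of 1, BTC passed as well (1.45), which made 3 of 10, all higher, where 15.2% of genes passed (10.3% higher). ERBB2 was at 28.1 RPKM at 6 h and 39.3 RPKM at 0 h, ERBB3 at 54.1 and 71.5 RPKM, and ERBB4 at 2.34 and 4.39 RPKM. These receptors were thus lower at 6 h, as they were in si-control. BTC was at 1.13 RPKM at 6 h and 0.351 RPKM at 0 h, and HBEGF at 0.214 and 0.231 RPKM. NRG1 was listed at 0 at both times. EGFR made up 9.29% of receptor RPKM at 6 h and 2.80% at 0 h.

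The untransfected tables divide EGFR over 11 transcripts. The longest, ENST00000275493 (9821 bases), had 8627 estimated reads at 6 h and 1569 at 0 h, and made up 40.6% of EGFR RPKM at 6 h and 20.4% at 0 h. A shorter one, ENST00000342916 (2239 bases), had 515 reads at 6 h and 1202 at 0 h, with 10.6% and 68.5% of the RPKM. Because short transcripts weigh more per read in RPKM, the summed RPKM rose less than the reads, which totalled 11540 at 6 h and 2881 at 0 h (log2 ratio of depth-scaled reads 1.87). For TGFA the 4310-base transcript ENST00000295400 carried 72.7% of RPKM at 6 h and 49.2% at 0 h. Division of reads among overlapping transcripts is an estimate of the authors' tool, and 1 library per time gives it no replicate check.

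Other ligands of the family rose with hormone. EGF, EPGN (epigen), NRG2 and NRG4, the 4 tested of 5 listed, were all called higher at 6 h under each of the 4 siRNAs, where 18.6% to 20.4% of all tested genes were. EGF had 84.6 and 82.8 CPM at 6 h against 12.1 and 10.1 CPM at 0 h in si-FOXA1 (log2 2.92, SE 0.12) and 47.7 and 44.8 CPM at 6 h against 26.5 and 22.5 CPM at 0 h in si-control (0.91, SE 0.11), a difference between responses of 2.00 (SE 0.16, adjusted p = 1.82e-07). EPGN had 0.463 and 0.731 CPM at 6 h against 0.332 and 0.365 CPM at 0 h in si-FOXA1, and 3.08 and 3.03 CPM at 6 h against 0.345 and 0.461 CPM at 0 h in si-control. Its response was smaller in si-FOXA1 by 2.14 (-2.14, SE 0.35, adjusted p = 0.000267). NRG4 responded more in si-FOXA1, by 1.00 (SE 0.26, adjusted p = 0.008).

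NRG2 was at 0 in both si-control 0 h libraries. It had 7 and 10 counts in si-control at 6 h, at least 3.27-fold above a floor of 3 counts per library. In si-FOXA1 at 0 h it had 75 and 50 counts, at least 18.7-fold above the same floor. The NRG2 response was called smaller in si-FOXA1 than in si-control. The size of that difference is not given, because si-control was at 0 before hormone. NRG3 had 0 to 4 counts per library and was not tested.

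Genes that restrain EGFR moved in both directions. Of 15 inhibitors and turnover genes, 7 were higher and 6 lower at 6 h in si-control. ERRFI1 (MIG6, an EGFR kinase inhibitor) had 137 and 149 CPM at 6 h against 36.2 and 34.3 CPM at 0 h in si-control (log2 2.02, SE 0.07). LRIG1, which promotes degradation of ERBB receptors, was higher by 1.55 (SE 0.07), and SPRY1, an inhibitor of RAS-ERK signalling, was lower by 1.48 (-1.48, SE 0.10). The ERRFI1 response was smaller in each knockdown than in si-control. The log2 difference between responses was -0.36 (SE 0.10, adjusted p = 0.038) in si-BRG1, -1.33 in si-CBX3 cells and -1.42 in si-FOXA1 cells. At 0 h ERRFI1 stood at 95.6 and 94.3 CPM in si-FOXA1, at 60.2 and 58.6 CPM in si-CBX3 and at 27.0 and 25.9 CPM in si-BRG1. Its 6 h levels were 148 and 139 CPM in si-FOXA1, which overlapped those of si-control. They were 94.3 and 97.5 CPM in si-CBX3 and 84.7 and 82.1 CPM in si-BRG1, below those of si-control.

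Of 7 ligand-release genes, 1 was higher and 3 lower at 6 h in si-control; the rhomboid protease gene RHBDL2 fell (-1.18, SE 0.15). Of 9 adaptors, 3 were higher and 3 lower, with GRB2, which links receptors to RAS, at 0.82 (SE 0.06) and the docking gene GAB1 at -0.95 (SE 0.08). Of 16 tested RAS-ERK and PI3K relays, 8 were higher and 2 lower, with PIK3CB, a PI3K catalytic subunit, at 0.69 (SE 0.07). Of 6 genes that ERK activity is known to raise, none was higher and 3 were lower (DUSP6 -1.56, SE 0.17). The background in that comparison was 19.5% higher and 18.1% lower. In si-FOXA1 against si-control at 0 h all 6 of these ERK-responsive genes were higher, beside 40% of all genes, among them PHLDA1 (2.07, SE 0.08), EGR1 (2.03, SE 0.20) and DUSP6 (1.22, SE 0.13). Of the 6, 3 were also higher and none lower in si-CBX3 at 0 h, with EGR1 at 3.57 (SE 0.19) and DUSP6 at 2.43 (SE 0.13). All tested genes were 28.1% higher and 26% lower by calls there. In si-BRG1 at 0 h, likewise 3 were higher and none lower, beside 15.1% and 13.4% of all genes. Within the 1-thread set, si-FOXA1 against si-CBX3 at 0 h, 3 were higher and 2 lower, with EGR1 at -1.54 (SE 0.15) and DUSP6 at -1.21 (SE 0.12). Of all tested genes, 34.2% were higher and 30.6% lower there.

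The genes whose pattern over the 8 group means was most like that of EGFR, the receptor with the widest range, were STAT5B (Pearson r = 0.989), CDC14B (0.988) and SGCB (0.983), out of 9788 genes. For AREG, the ligand with the widest range, they were TUBG2 (0.993), CDH3 (0.992) and UBXN11 (0.99). These are descriptions over 8 points that share libraries and the FOXA1 and hormone steps, and the AREG values are uncertain.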

How the data were processed

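The authors deposited fragment counts per gene for the 16 siRNA libraries, made per the file headers with featureCounts 1.4.6-p2 in reverse-stranded mode on GENCODE 19 models of hg19, after trimming and alignment for which the submitters' processing notes list Trimmomatic and STAR. The untransfected tables hold estimated reads and RPKM per transcript as deposited, by a tool not given in the sources used here; RPKM were summed per gene and given a pseudocount of 1 (alternative 0.1). Each BRG1 peak carries the score that the authors deposited with it, with Bowtie 1.0.0 and HOMER listed in those notes.

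Counts were fitted once over all 16 libraries with edgeR 4.0.16 (R 4.3.3; filterByExpr, TMM, quasi-likelihood test, 8 residual degrees of freedom), with two-sided p-values adjusted by Benjamini-Hochberg over 18806 genes. DESeq2 1.42.0 was an alternative. Peaks within 5 kb of a gene's 5′ end were assigned to it, in 1-based coordinates. Members, gene lists and tests were chosen with earlier results of these data known. The genes named were all members, the siRNA targets, up to 3 called genes per pathway list and comparison with the lowest p, the other EGF-family ligands, markers, and the 3 genes most like EGFR and AREG among those with a mean log2 CPM of at least 3. The fit was tested on simulated data.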

Additional observations from a re-analysis of the deposited data

Results flagged for a closer look

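The report prints values for differences between hormone responses. Of these, 8 of members and 6 of ERRFI1 and further ligands passed the interaction test (edgeR, adjusted p below 0.05). Each value is the log2 response in the knockdown minus that in si-control. For TGFA it was 0.53 in si-BRG1, 0.54 in si-CBX3 and -0.74 in si-FOXA1. For ERBB3 it was -0.37 in si-CBX3. In si-FOXA1 it was -1.03 for EGFR, -0.99 for HBEGF, 0.71 for ERBB4 and 1.56 for BTC. For ERRFI1 it was -0.36 in si-BRG1, -1.33 in si-CBX3 and -1.42 in si-FOXA1. For the further ligands in si-FOXA1 it was 2.00 for EGF, -2.14 for EPGN and 1.00 for NRG4. NRG2 was called there as well, with a difference below 0. All 4 tested further ligands were thus called in si-FOXA1, 2 above 0 and 2 below, beside 13% and 15.7% of all genes. The fold of EGFR and TGFA was thus smaller in si-FOXA1, where the 0 h level of each was called higher than in si-control. The fold of TGFA was larger in si-BRG1 and si-CBX3, where its 0 h level was also called higher (1.24-fold and 1.53-fold). Whether the 0 h level bears on the fold was not tested. Further pathway genes passed the same test: in si-FOXA1 5 of 15 inhibitors and turnover genes had a difference above 0 and 6 one below 0 (ERRFI1 among them), as did 4 and 3 of 16 relays and 3 and 1 of 9 adaptors, beside 13% and 15.7% of all genes, and in si-CBX3 3 of 6 ERK-responsive genes had one below 0, beside 4.36%. Leaving out single libraries ended the calls named in the report and left EGFR, HBEGF, TGFA, ERBB4 and BTC called in si-FOXA1 in each of the 8 fits.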

How the results depend on the processing

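Of 126 member fold changes, 72 were called and 56 of these passed in every alternative; no value changed sign among called results. With only the contrast's groups in the fit, 0 members were called in the si-BRG1 difference of responses (1 with all groups). Leaving out one library gave 0 to 1 members there, 1 to 2 in the si-CBX3 difference, 1 to 3 in si-BRG1 at 0 h and 4 to 6 in si-CBX3 at 6 h. Over all genes, calls in the si-BRG1 difference numbered 981, against 67 with its 4 groups alone, 1514 in DESeq2 and 147 to 2840 without one library; the lowest counts without one library were 825 in the si-CBX3 difference (1690 with all) and 3246 in si-BRG1 at 0 h (5352); with only its own groups, the si-BRG1 hormone response gave 4342 (6706 with all) and si-BRG1 at 6 h 3814 (7024). Replicate numbers are shared by the labels, but same-numbered deviations correlated at -0.452 to 0.561 over 28 pairs of groups, so they were not taken as pairs; with replicate number as a block, 2 member calls were lost (EGFR in si-BRG1 at 0 h, 0.25, adjusted p = 0.0525; ERBB3 in si-FOXA1 at 0 h, -0.16, adjusted p = 0.0501). DESeq2's size factors in place of TMM moved the median log2 change of all genes by at most 0.045 and the share of higher among called genes by up to 8.26 percentage points. It turned the majority over in si-BRG1 (at 0 h 2490 higher and 3065 lower, against 2841 and 2511 with TMM) and in si-CBX3 (at 0 h 4863 and 5320, against 5283 and 4894) at both times, and in the near-even hormone responses in si-CBX3 and si-FOXA1, so the printed shares of genes called higher or lower depend on the scaling. Counts of AREG, EREG and NRG1 limit what could be detected.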
